A study of Mus musculus with 10 samples.

Results

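Expression of the YAP/TEAD pathway and of its CCN targets was followed in mouse lung after arsenic exposure, through 9 genes. These are the targets Ccn1, Ccn2, Ankrd1, Amotl2 and Thbs1, the coactivators Yap1 and Wwtr1, the DNA-binding factor Tead1 and the kinase Lats2. The genes were fixed by name, with earlier results of these data known. Every probe set whose only gene symbol in the array's annotation was one of them was taken. This gave 23 probe sets of 45101 on the array. A probe set is a group of short oligonucleotides that reads 1 transcript or part of it, and several genes have more than 1. Of the 23 probe sets, 20 were bright enough to be tested, and 3 dim ones (2 of Lats2 and 1 of Tead1) are given as values only.

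Lungs of 10 female C57BL/6 mice, an inbred laboratory strain, were measured with 1 Affymetrix array per animal. In the arsenic group 5 mice had 50 ppm arsenic in their drinking water for 12 weeks from 8 weeks of age, and in the control group 5 mice had water with 0 ppm. No allele, transgene or other treatment is named for either group. The series calls the compound arsenate and the sample labels call it arsenite, so it is called arsenic here. All values are log2 expression levels normalized by the authors, so that 1 unit is 2-fold. The arrays had medians of 4.11 to 4.26 and correlated with each other at 0.990 to 0.997, and with 5 per group the precision of each difference is set by the spread between animals. Markers of lung type 2 cells, club cells and type 1 cells had mean levels of 14.5 to 14.7, 15.6 to 15.8 and 13.3 to 13.5 in arsenic lungs and 14.6 to 14.7, 15.7 to 15.9 and 13.3 to 13.5 in control lungs. Markers of heart muscle, mesothelium and kidney were also detected, and their levels are given beside the results they touch.

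The most negative and the most positive differences among the tested probe sets of the 9 genes were those of Ccn1. Its 2 brightest probe sets averaged about 1 log2 unit lower in arsenic lungs, with 4 of 5 arsenic animals below every control animal. Its other 2 probe sets averaged 0.99 and 1.16 higher, with 95% intervals that included 0 and control animal 2 at 3.84 and 2.73. Ankrd1 (by 0.43 and 0.48) and Amotl2 (by 0.24) also averaged lower in arsenic lungs, while Ccn2, Thbs1, Yap1, Wwtr1, Tead1 and Lats2 had differences whose 95% intervals included 0. No probe set of the 9 genes passed the threshold over the whole array.

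The Hippo pathway is a kinase cascade that senses cell density, attachment and mechanical tension. The kinases LATS1 and LATS2 phosphorylate the coactivators YAP (Yap1) and TAZ (Wwtr1), which keeps them in the cytoplasm; when the kinases are quiet, YAP and TAZ enter the nucleus and bind TEAD proteins, which bring them to DNA. Ccn1 and Ccn2 encode secreted matricellular proteins that bind integrins and are classical readouts of YAP and TAZ activity in cultured cells. In lung the pathway is known for its part in airway and alveolar epithelial growth, repair after injury and fibroblast activation. YAP and TAZ are controlled largely through phosphorylation and location of the proteins, which an array of transcripts does not measure.

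TEAD proteins recognise the hexamer GGAATG, or CATTCC on the opposite strand, so the promoter windows of the genes were searched for it. A window runs from 250 bases before to 50 bases after a gene's start in RefSeq, mouse build GRCm38.p6, and windows were at hand for 6 of the 9 genes (Ccn1, Ankrd1, Amotl2, Lats2, Yap1 and Wwtr1). The windows of Ccn1, Ankrd1 and Amotl2 are printed whole. These were the genes with a tested probe set lower in arsenic lungs at an unadjusted limma p under 0.05. Sequences run 5′ to 3′ along the gene's strand, and capitals mark the hexamer in either orientation.
Ccn1, chr3:145649936-145650235, minus strand: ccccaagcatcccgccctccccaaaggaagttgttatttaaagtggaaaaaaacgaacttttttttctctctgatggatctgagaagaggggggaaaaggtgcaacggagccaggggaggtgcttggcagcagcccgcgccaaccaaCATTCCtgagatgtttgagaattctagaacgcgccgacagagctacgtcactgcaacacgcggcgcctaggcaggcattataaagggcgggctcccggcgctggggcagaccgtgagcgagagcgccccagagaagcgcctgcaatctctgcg
Ankrd1, chr19:36119795-36120094, minus strand: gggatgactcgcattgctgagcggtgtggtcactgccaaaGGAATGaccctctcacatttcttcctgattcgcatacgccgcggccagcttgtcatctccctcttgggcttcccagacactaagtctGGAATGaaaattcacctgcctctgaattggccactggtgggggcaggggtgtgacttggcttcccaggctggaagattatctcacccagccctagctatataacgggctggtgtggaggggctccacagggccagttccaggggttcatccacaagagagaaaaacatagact
Amotl2, chr9:102717554-102717853, plus strand: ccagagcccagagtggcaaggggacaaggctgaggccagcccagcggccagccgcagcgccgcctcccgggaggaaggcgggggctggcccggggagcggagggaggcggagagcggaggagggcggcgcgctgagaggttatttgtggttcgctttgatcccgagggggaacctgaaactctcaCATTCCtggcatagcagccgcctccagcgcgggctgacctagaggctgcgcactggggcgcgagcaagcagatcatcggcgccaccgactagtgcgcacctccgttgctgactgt

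For the upstream genes Lats2, Yap1 and Wwtr1, 30 bases around the hexamer are shown with the same marking, which lets the surroundings of the match be compared with those of the targets.
Lats2, chr14:57746102-57746131, minus strand: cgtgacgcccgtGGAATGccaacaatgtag
Yap1, chr9:8004720-8004749, minus strand: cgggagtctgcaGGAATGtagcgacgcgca
Wwtr1, chr3:57576029-57576058, minus strand: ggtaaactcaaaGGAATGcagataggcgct

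All 6 genes had the hexamer in at least 1 window. Over all promoters it was found in 4817 of 32851 windows (14.7%), or in 16.6% of 27025 genes. Its first base lay 103 bases upstream of the start in Ccn1 and 65 bases upstream in Amotl2, in both as CATTCC. Ankrd1 had 2 copies as GGAATG, 210 and 123 bases upstream. In Yap1 it lay 141 bases upstream, and in Wwtr1 the same copy lay 136 or 170 bases upstream of 2 annotated starts. In Lats2 it began at base 5, counting the start as base 1, and the window of the second start held none. The AP-1 motif TGANTCA, which reads the same on both strands, was found in 0 of the 6 genes and in 8.97% of all genes (7.81% of windows). The CArG box of serum response factor, searched on both strands, was found in 0 of the 6 genes and in 1.81% of all genes (1.63% of windows). No TEAD match in the 6 genes therefore overlapped either of the other motifs. Among other genes of the lists described below, the TEAD hexamer was in 3 of 11 further YAP signature genes, 5 of 19 genes of the Hippo cascade and 2 of 16 immediate-early genes. A match describes these letters only, and binding was not measured.

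**Figure D1:**
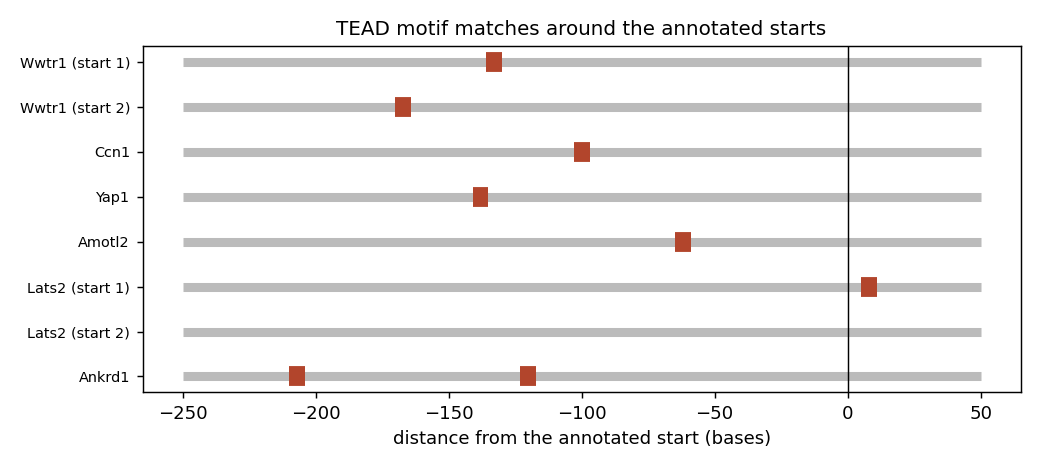
Positions of TEAD hexamers in the promoter windows of the genes, with the distance from the annotated start in bases on the x axis and 1 line per window. Marks lie upstream of the start in Ccn1, Ankrd1, Amotl2, Yap1 and Wwtr1 and just downstream in Lats2.

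With limma's moderated test and Benjamini-Hochberg adjustment over all 22495 probe sets tested, 0 of the 20 tested probe sets had an adjusted p under 0.05. Over the array 0.44% of probe sets passed (99, of which 0.262% higher and 0.178% lower). At an unadjusted p under 0.05 there were 5 of 20, all lower in arsenic lungs, from Ccn1, Ankrd1 and Amotl2, against 8.79% lower and 17.2% in either direction over the array. A change of at least 2-fold was seen in 3 of 20, all of Ccn1 (2 lower and 1 higher in arsenic lungs), against 0.916% over the array. In none of the 20 did the arsenic values lie entirely apart from the control values, which over the array held for 3.86% of probe sets. The differences were negative in 14 and positive in 6, with a median of -0.07; over all tested probe sets the median was 0.03 and 44.7% were negative. Several probe sets read the same gene, so these counts are not of independent measurements. The genes were also chosen with earlier results of these data known. Of the 20, 18 exceeded the table's median of 4.20 on every array, and the other 2 were a pair of Ccn1 probe sets described below.

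**Figure D2:**
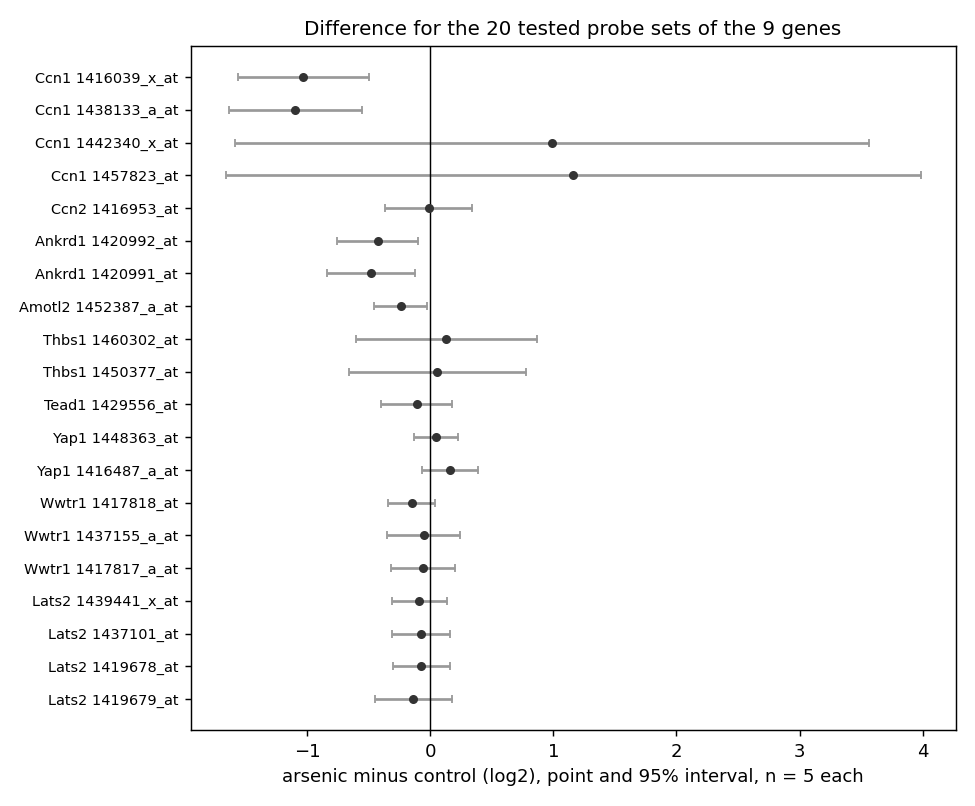
Difference in log2 level, arsenic minus control, for the tested probe sets of the genes, with 95% intervals from limma. The intervals of 2 Ccn1, both Ankrd1 and the Amotl2 probe sets lie below 0, and the widest are those of the other 2 Ccn1 probe sets.

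Ccn1, also known as Cyr61, encodes a secreted CCN protein that binds integrins and is induced quickly by growth factors and stretch. With probe set 1416039_x_at, the brightest, arsenic lungs 1 to 5 had log2 levels of 10.49, 11.03, 10.99, 10.63 and 11.67, and control lungs 1 to 5 had 12.53, 12.27, 11.87, 11.58 and 11.72. Arsenic animal 5 was the one arsenic lung above the lowest control, control animal 4, so the groups overlapped by that pair of animals. The means were 10.96 ± 0.46 in arsenic and 11.99 ± 0.40 in control lungs (SD, n = 5 each), a log2 difference of -1.03 (SE 0.24, 95% interval -1.57 to -0.50), or 2.04-fold lower. The limma adjusted p was 0.109.

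Ccn1 probe set 1438133_a_at gave the same order of groups. Its log2 levels were 9.44, 10.08, 10.06, 9.79 and 10.84 in arsenic lungs 1 to 5 and 11.50, 11.47, 11.06, 10.78 and 10.89 in control lungs 1 to 5. Arsenic animal 5 again lay just above control animal 4. The means were 10.04 ± 0.52 and 11.14 ± 0.33 (arsenic and control, SD, n = 5 each), a difference of -1.10 (SE 0.24, limma adjusted p = 0.0957), or 2.14-fold lower. When arrays were weighted by their quality in the fit, this probe set reached a limma adjusted p of 0.0494 at a difference of -1.25, which was the single setting of all those tried that brought a probe set of the 9 genes past the threshold. Over the alternatives its adjusted p ranged from 0.0494 to 0.236.

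A pair of further Ccn1 probe sets did not follow the first pair. With 1442340_x_at the log2 levels were 9.93, 8.15, 10.09, 9.30 and 9.91 in arsenic lungs 1 to 5 and 11.16, 3.84, 7.91, 10.56 and 8.98 in control lungs 1 to 5. With 1457823_at they were 9.70, 7.86, 9.79, 8.996 and 9.63 in arsenic lungs and 10.81, 2.73, 7.90, 10.18 and 8.55 in control lungs. Control animal 2 was lowest in both, at the level of dim probe sets, and control animal 1 was highest, so that the control values spanned the arsenic values on both sides. The differences were 0.99 (SE 1.17, limma adjusted p = 0.669) and 1.16 (SE 1.28, adjusted p = 0.647), and without control animal 2 they were -0.17 and -0.17. By the range over all animals, 8.09 and 7.32 log2 units, the pair ranked 12 and 16 of 22495 tested probe sets, where the median range was 0.69. Control animal 2 had the second highest level of the first pair of Ccn1 probe sets, so the low values were not shared by all probes for Ccn1. By the array maker's naming, the suffix x_at marks probe sets with probes that also match other sequences; 1 probe set of each pair carries it (1442340_x_at here and 1416039_x_at, the brightest), so it does not separate the pairs. The probes themselves were not examined here.

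**Figure D3:**
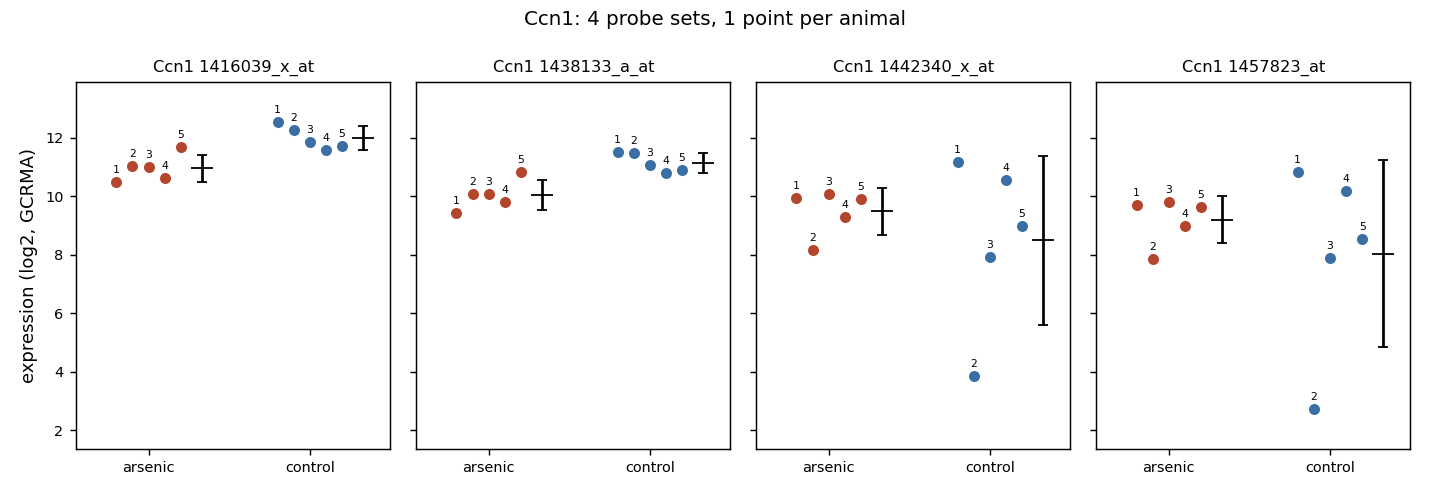
Log2 level of Ccn1 in each animal for its 4 probe sets, with arsenic left of control; points are animals, and bars show the mean and SD. In 1416039_x_at and 1438133_a_at the arsenic means are lower, and in the other pair control animal 2 is at 3.84 and 2.73.

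Kidney transcripts were detected in these lungs at levels that varied between animals and overlapped between the groups. The mean level of 13 kidney genes was 5.25 to 6.43 in arsenic lungs and 4.19 to 5.72 in control lungs. Of these genes, 7 passed the filter on dim probe sets and 0 passed the adjusted threshold. At an unadjusted limma p under 0.05, 2 of the 7 were higher (Umod by 2.26 and Cdh16 by 0.59) and 0 lower. Over all genes these shares were 10.4% higher and 4.96% lower. The median difference of the 7 was 0.71, beside 0.06 over all genes. Kap, a kidney gene under androgen control, had 10.56 to 13.40 in arsenic lungs and 2.26 to 12.12 in control lungs, the lowest being control animal 1, which was also the animal with the highest Ccn1 in the brightest probe set. When the kidney level was added to the model, the Ccn1 differences of the 2 brightest probe sets were -0.66 (limma adjusted p = 0.162) and -0.80 (adjusted p = 0.158). The part of kidney transcripts in the Ccn1 difference was not tested beyond this. In whole lung, fewer cells of a type and less RNA per cell cannot be told apart.

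Ccn2, also known as Ctgf, encodes the sister CCN protein linked to matrix production by fibroblasts. Its probe set 1416953_at had log2 levels of 12.04, 12.78, 12.67, 12.62 and 13.04 in arsenic lungs 1 to 5 and 12.58, 12.71, 12.63, 12.49 and 12.79 in control lungs 1 to 5. Arsenic animals 1 and 5 were the lowest and the highest of all, and the control values lay between them. The means were 12.63 ± 0.37 and 12.64 ± 0.12 (arsenic and control, SD, n = 5 each), with a difference of -0.01 (95% interval -0.36 to 0.34, limma adjusted p = 0.975). A 2-fold change in Ccn2 lies outside this interval, whereas the interval of the brightest Ccn1 probe set includes one. Fibroblasts and mesothelium are known sources of Ccn2. The level of 7 fibroblast genes was 11.56 to 11.82 in arsenic lungs and 11.73 to 11.97 in control lungs, and that of 5 mesothelial genes was 5.36 to 9.05 in arsenic lungs and 6.68 to 8.86 in control lungs. All of these genes passed the filter and 0 passed the adjusted threshold. At an unadjusted limma p under 0.05, 2 of the fibroblast genes (Col3a1 and Col1a2) were lower, against 4.96% of all genes, and 0 mesothelial genes differed. The part of these cells in the Ccn2 values was not tested.

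Thbs1, which encodes the matricellular glycoprotein thrombospondin 1, an activator of latent TGF-beta, spread more widely within groups than Ccn2, with SDs of 0.70 in arsenic and 0.48 in control lungs in its brighter probe set. Probe set 1460302_at had log2 levels of 9.14, 10.73, 10.41, 10.43 and 10.92 in arsenic lungs 1 to 5 and 10.52, 9.73, 10.36, 9.65 and 10.72 in control lungs 1 to 5. Arsenic animal 1 was lowest and arsenic animal 5 highest, as for Ccn2. The difference was 0.13 (SE 0.33, 95% interval -0.61 to 0.86, limma adjusted p = 0.856). Probe set 1450377_at had 6.78, 8.25, 8.01, 7.96 and 8.67 in arsenic lungs and 8.24, 7.44, 7.99, 7.41 and 8.31 in control lungs, a difference of 0.06 (SE 0.33, adjusted p = 0.938). Thbs1 is also a gene of platelets. The level of 5 platelet genes, of which 5 passed the filter and 0 the adjusted threshold, was 7.39 to 7.80 in arsenic lungs and 6.97 to 7.64 in control lungs. At an unadjusted limma p under 0.05, 1 of them (Itga2b) was higher, against 10.4% of all genes. The part of platelets in the Thbs1 values was not tested.

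Ankrd1 encodes an ankyrin-repeat protein of muscle sarcomeres and nuclei that is strongly induced by YAP and by stretch. Its probe set 1420992_at had log2 levels of 8.32, 8.14, 7.92, 7.75 and 8.39 in arsenic lungs 1 to 5 and 8.68, 8.40, 8.31, 8.88 and 8.39 in control lungs 1 to 5. Its probe set 1420991_at had 7.79, 7.60, 7.48, 7.49 and 8.09 in arsenic lungs and 8.33, 7.88, 8.03, 8.61 and 8.02 in control lungs. Control animal 4 was highest in both, and 3 and 4 of 5 arsenic animals lay below every control. The differences were -0.43 (SE 0.15, limma adjusted p = 0.206) and -0.48 (SE 0.16, adjusted p = 0.194). Ankrd1 is also a gene of heart muscle, which reaches lung samples along the pulmonary veins. The level of 11 heart muscle genes, of which 9 passed the filter and 0 the adjusted threshold, was 6.36 to 9.11 in arsenic lungs and 6.81 to 8.89 in control lungs. With that level as a covariate, an alternative chosen after seeing the data, the Ankrd1 differences were -0.45 and -0.50 (limma adjusted p = 0.212 and 0.206). Over all alternatives except leaving out 1 array, 1420992_at ranged from -0.45 to -0.34, the latter with the kidney level as covariate. Over the same alternatives 1420991_at ranged from -0.51 to -0.42. The part of heart muscle or kidney transcripts in the Ankrd1 differences was not tested beyond this.

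Amotl2 encodes an angiomotin-like junction protein that binds YAP and holds it outside the nucleus, and is itself a target, so it forms a negative feedback. Probe set 1452387_a_at had log2 levels of 10.13, 10.45, 10.15, 10.16 and 10.30 in arsenic lungs 1 to 5 and 10.36, 10.68, 10.59, 10.32 and 10.46 in control lungs 1 to 5. Of the arsenic animals 4 lay below every control, and arsenic animal 2 lay within the control values. The difference was -0.24 (SE 0.10, 95% interval -0.46 to -0.03, limma adjusted p = 0.251), or 1.18-fold lower.

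**Figure D4:**
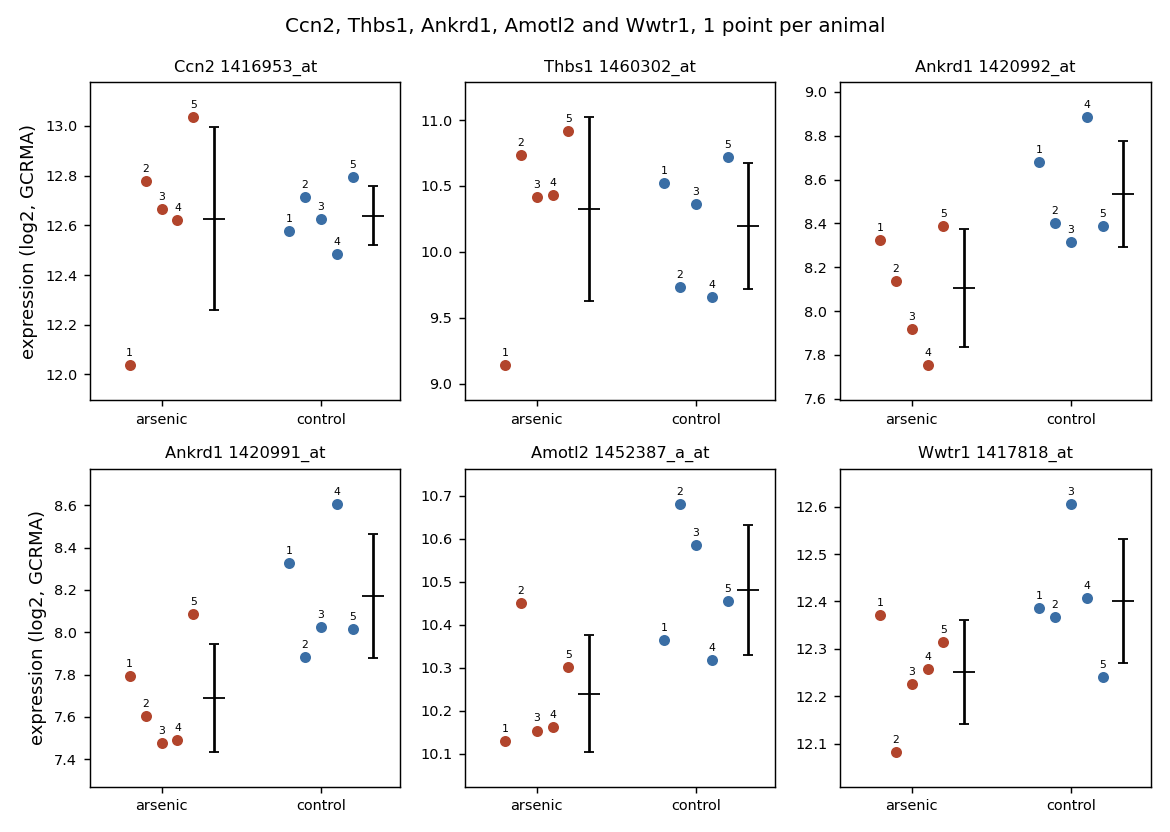
Log2 levels of the targets Ccn2, Thbs1, Ankrd1 and Amotl2 and of the coactivator Wwtr1 in each animal, arsenic left of control, with the mean and SD as bars. Ankrd1 and Amotl2 averaged lower in arsenic lungs with overlap between the groups, and Ccn2 and Thbs1 overlap throughout.

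Of the coactivators, Wwtr1 was bright in every lung. Its probe set 1417818_at averaged 12.25 ± 0.11 in arsenic and 12.40 ± 0.13 in control lungs (SD, n = 5 each), a difference of -0.15 (SE 0.09, 95% interval -0.34 to 0.04, limma adjusted p = 0.383). The other Wwtr1 probe sets, 1437155_a_at and 1417817_a_at, differed by -0.05 and -0.06, and in both arsenic animal 3 was low, at 9.81 and 9.62, while the other arsenic animals had 10.33 to 10.53 and 10.15 to 10.25. That animal was not low in 1417818_at, where it had 12.23.

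Yap1 probe set 1448363_at averaged 10.51 ± 0.10 in arsenic and 10.46 ± 0.11 in control lungs, a difference of 0.04 (95% interval -0.13 to 0.22, limma adjusted p = 0.791). With 1416487_a_at the Yap1 averages were 8.46 ± 0.15 and 8.30 ± 0.16, a difference of 0.16 (95% interval -0.07 to 0.39, adjusted p = 0.425). Both intervals of Yap1 leave out changes as large as that of Ccn1.

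Tead1, the DNA-binding partner, averaged 10.76 ± 0.25 in arsenic and 10.87 ± 0.18 in control lungs with 1429556_at, a difference of -0.11 (95% interval -0.40 to 0.18, limma adjusted p = 0.675). Its second probe set, 1423434_at, was dim, with 3.71 to 3.88 in arsenic and 3.75 to 3.86 in control lungs.

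Lats2, the kinase that phosphorylates YAP and TAZ and is itself a YAP target, had 4 tested probe sets with differences of -0.09 (1439441_x_at), -0.07 (1437101_at), -0.07 (1419678_at) and -0.14 (1419679_at), with limma adjusted p of 0.622 to 0.732. The brightest Lats2 probe set, 1439441_x_at, had 10.86 to 11.11 in arsenic and 10.79 to 11.26 in control lungs. The remaining Lats2 probe sets, 1425420_s_at and 1426156_at, were dim and averaged 3.19 and 2.32 in arsenic lungs and 3.15 and 2.36 in control lungs.

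The other genes of the Hippo cascade were read from a list of 26 kinases, adaptors and scaffolds, of which 23 were measured, each by its brightest tested probe set. None of the 23 passed the adjusted threshold, which over all 11332 genes 0.415% did. At an unadjusted p under 0.05 there were 2 higher and 4 lower, or 6 of 23, against 15.3% over all genes (10.4% higher and 4.96% lower), and the list's median difference was -0.002 beside 0.06 over all genes. Mob1b, the adaptor that activates LATS kinases, averaged 8.12 ± 0.29 in arsenic and 8.77 ± 0.28 in control lungs, a difference of -0.65 (limma adjusted p = 0.130). Stk4, the upstream kinase also known as MST1, differed by -0.35, -0.33 and -0.36 on its 3 probe sets (adjusted p = 0.198, 0.191 and 0.280). Lats1, the sister kinase of Lats2, differed by -0.38 (adjusted p = 0.192). Ptpn14, a phosphatase that binds YAP, differed by 0.25 with its brightest probe set (adjusted p = 0.149), with all arsenic animals above all controls. Such separation, in either direction, held for 3.86% of probe sets over the array. The other Ptpn14 probe sets gave 0.72 and -0.10, so they disagreed in sign.

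Partners of YAP, TAZ and TEAD on DNA formed a list of 12 genes. Of these, 8 were measured and none passed limma's adjusted threshold, which 0.415% of all genes did. At an unadjusted p under 0.05, 1 (Smad3) was higher and 0 were lower, against 10.4% higher and 4.96% lower over all genes. Of the TEAD family, Tead2 differed by 0.31 (limma adjusted p = 0.497) and Tead3 by 0.03, and Tead4 was too dim to test, at 4.12 ± 0.57 in arsenic and 3.45 ± 0.39 in control lungs. Among the Vestigial-like cofactors that compete for TEAD, Vgll4 differed by -0.21 and Vgll3 by -0.08, and Vgll1 and Vgll2 were too dim to test. The partner factors Smad3 and Tbx5 differed by 0.20 (adjusted p = 0.289) and 0.36 (adjusted p = 0.338). The other tested Smad3 probe set differed by 0.06 (limma adjusted p = 0.771).

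Further target genes, from a published YAP/TAZ signature of human tumours, numbered 17. Of these, 16 were measured and none passed limma's adjusted threshold, which 0.415% of all genes did. At an unadjusted p under 0.05, 1 was higher (Ptpn14) and 1 lower (Tgfb2), against 10.4% higher and 4.96% lower over all genes. The list's median difference was 0.05, beside 0.06 over all genes. Tgfb2, a TGF-beta ligand, differed by -0.44 with its brightest probe set (limma adjusted p = 0.230) and was lower on all 4 of its probe sets, by -0.26 to -0.53. Rbms3, an RNA-binding protein gene, differed by -0.42 (adjusted p = 0.303), and F3, the tissue factor that starts coagulation, by 0.21 (adjusted p = 0.560). Ptpn14 belongs to this list as well.

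Of the other CCN genes, Ccn3 and Ccn5 differed by -0.06 and -0.10 (limma adjusted p = 0.919 and 0.877), and Ccn4 and Ccn6 were too dim to test. The integrin subunits and other receptors of CCN proteins, 11 genes, had none past the adjusted threshold and 0 at an unadjusted p under 0.05. Over all genes these shares were 0.415% and 15.3%. Itgav, an integrin subunit, differed by -0.23 (adjusted p = 0.350) and Lrp1, a scavenger receptor, by 0.20 (adjusted p = 0.366). None of 4 measured relatives and partners of Thbs1 and none of 14 actin and serum response factor genes passed, with differences of -0.06 to 0.11 and of -0.09 to 0.19. In both of these lists 0 genes had an unadjusted p under 0.05. Of 9 measured TGF-beta target genes none passed either, and 2 were higher and 1 lower at an unadjusted p under 0.05, against 10.4% higher and 4.96% lower over all genes. There the smallest unadjusted p belonged to Skil, a feedback repressor, with -0.45 (adjusted p = 0.251), Bhlhe40 with 0.39 (0.276), Id1 with 0.29 (0.277) and Tgfbi with 0.21 (0.312).

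**Figure D5:**
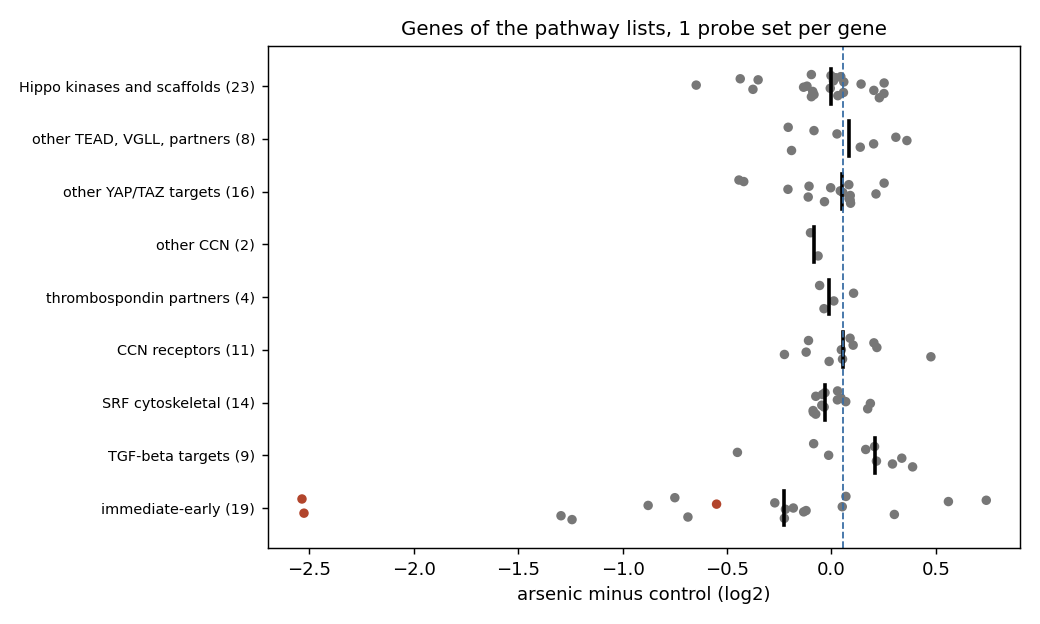
Log2 difference, arsenic minus control, of each measured gene in the pathway lists, with the list median as a black bar and the median of all genes as a dashed line; red points passed the adjusted threshold. Red points occur in the immediate-early list (Nr4a1, Egr3 and Klf4) and in none of the other lists.

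Ccn1 is also an immediate-early gene, and a list of 20 other immediate-early genes was the one with calls. The list was chosen with earlier results of these data known, so its calls are not an independent result. Of 19 measured, 3 fell and none rose, the orphan nuclear receptor Nr4a1 with a log2 difference of -2.54, the zinc-finger factor Egr3 with -2.53 and the Krüppel-like factor Klf4 with -0.55 (limma adjusted p = 0.006, 0.026 and 0.047). Over the alternatives the adjusted p of Nr4a1 ranged up to 0.056, that of Egr3 up to 0.119 and that of Klf4 up to 0.129, and the number of immediate-early genes past the threshold was 0 to 4. At an unadjusted p under 0.05 there were 9 lower and 2 higher of the 19, and the list's median difference was -0.23. Over all genes 0.415% passed the adjusted threshold, 4.96% were lower and 10.4% higher at an unadjusted p under 0.05, and the median was 0.06.

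Likeness to the targets was measured as the root mean square difference between the values of 2 probe sets over the 10 animals, each centred on its own mean, so that it includes the difference between groups. The 3 genes nearest to Ccn1 were the phosphodiesterase gene Pde4b at 0.23 log2 units, the immediate-early gene Egr1 at 0.30 and the metabolic enzyme gene Dlst at 0.34, where the spread of Ccn1 itself was 0.64. The second brightest Ccn1 probe set lay at 0.089.

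The genes nearest to Ccn2, whose own spread was 0.24, were Eif4ebp2 at 0.097, Tsfm at 0.107 and Slc5a6 at 0.107. Eif4ebp2 and Slc5a6 were dim, near the table's median of 4.20. They averaged 4.32 and 4.27 in arsenic lungs and 4.34 and 4.21 in control lungs. The genes nearest to Thbs1, with a spread of 0.54, were Ccdc86 at 0.317, Tnfrsf12a at 0.318 and Nr4a3 at 0.323. Those nearest to Ankrd1, with a spread of 0.31, were Ccdc122 at 0.139, Pigl at 0.151 and Nudt6 at 0.156. Because likeness includes the difference between groups, that of a neighbour resembles the target's by construction and is not given as a result.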

How the data were processed

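Per the labels, lung RNA of each of 10 mice was run on its own Affymetrix Mouse430_2 array. The authors deposited 1 log2 value per probe set and array. Per the submitters' processing notes the tool was GCRMA, which corrects background by probe sequence, normalizes arrays and summarises probe sets (version not given in the sources used here). The scale of the values was taken as log2 from their range, 0.619 to 16.3. GCRMA pulls dim probe sets towards a floor, which makes their differences too small. Scanner files, and with them scan dates, were not used here.

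Groups came from the titles; the field on treatment of control 4 gives no dose. The first number in the titles is 20 for all arsenic and 4 for all control animals; what it means is not given, and the exposure cannot be told apart from it. Every animal has its own number in the labels. Genes were named through the platform annotation, in which 34958 probe sets had 1 symbol, 932 had several and 9211 were not listed.

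Probe sets above the table's median of 4.20 on at least 5 arrays, without 64 control probe sets, were tested with limma 3.58.1 (lmFit, then eBayes; R 4.3.3), with no covariate. P-values were adjusted by Benjamini-Hochberg over all 22495, with a threshold of 0.05, and intervals are at 95%. For lists, each gene stood by its brightest tested probe set. Marker levels are means of log2 values. Figures used matplotlib 3.10.9. The fit was tested on simulated data. The alternatives were other filters, 1 probe set per gene, median centring, quantile normalization, array weights, eBayes with a trend or robust, an unmoderated statistic, a replicate block, the kidney level as a covariate and leaving out arrays; the heart muscle level was added after seeing the data.

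The 9 genes and all lists were chosen with earlier results of these data known. Named genes are all probe sets of the 9 genes, up to 4 genes per list with the smallest p, those past the threshold, the Ccn, Tead and Vgll families, and the 3 genes most like each of Ccn1, Ccn2, Thbs1 and Ankrd1.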

Additional observations from a re-analysis of the deposited data

Results flagged for a closer look

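In 3 of 46 groups of 5 animals, 1 animal lay far from the other 4 by Dixon's test (critical value 0.71). Chance gives about 1 in 20 such groups, or 2.3 here. Thbs1 in probe set 1460302_at was 9.14 in arsenic animal 1 and 10.41 to 10.92 in the other arsenic animals. Wwtr1 was 9.81 in arsenic animal 3 with 1437155_a_at and 10.33 to 10.53 in the others, and 9.62 with 1417817_a_at and 10.15 to 10.25 in the others.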

How the results depend on the processing

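The 20 tested probe sets of the 9 genes gave 446 values under 23 alternatives: 421 kept their sign and their side of the threshold, 24 changed sign in 7 probe sets, and 1 passed the threshold (Ccn1 1438133_a_at with array weights, adjusted p = 0.0494). With 5 animals a group, differences as small as those of most of these genes are not resolved. The number of probe sets past the threshold over the array, 99, was 19 with no filter, 54 with 1 probe set per gene, 167 with array weights, 6 with the kidney level in the model, 1 with an unmoderated statistic, 0 (5133 at an unadjusted p under 0.05) without arsenic 4 and control 2 together, and 12 (without control 1) to 97 (without arsenic 4) when 1 array was left out: 73, 24, 29 and 13 without arsenic 1, 2, 3 and 5, and 23, 18, 43 and 66 without control 2 to 5. With the replicate number as a block it was 4. Same-numbered animals did not deviate together (correlations 0.06, 0.15, -0.26, 0.08 and -0.10) and 0 of 5 correlated best with its own number, so the numbers were not taken as pairs. Sign changes were as follows, in log2. Without arsenic 4 and control 2, the pair with most kidney transcript in earlier results (here controls 3 and 4 were above control 2), Ccn1 1442340_x_at was -0.13, Ccn1 1457823_at -0.12, Ccn2 0.008, Thbs1 1460302_at -0.01, Thbs1 1450377_at -0.06, Ccn5 0.07 and Eif4ebp2 0.006. With median centring Ccn2 was 0.052, Wwtr1 1437155_a_at 0.0092, Wwtr1 1417817_a_at 0.0045 and Eif4ebp2 0.044. Median centring moved the median difference over all tested probe sets to 0.089. With quantile normalization Eif4ebp2 was 0.052. With the kidney level Ccn2 was 0.053, Ccn5 0.011, Eif4ebp2 0.066 and Tnfrsf12a 0.20. With array weights Thbs1 1460302_at was -0.098, Thbs1 1450377_at -0.165, Ccn3 0.040, Ccdc86 -0.079 and Nr4a3 -0.086; with the heart muscle level Ccn3 was 0.065. Leaving out 1 array gave -0.17 to 1.66 (Ccn1 1442340_x_at), -0.17 to 1.85 (Ccn1 1457823_at), -0.11 to 0.14 (Ccn2), -0.019 to 0.43 and -0.13 to 0.35 (Thbs1), -0.11 to 0.074 and -0.10 to 0.055 (Wwtr1), -0.25 to 0.13 (Ccn3), -0.28 to 0.11 (Ccn5), -0.032 to 0.11 (Tead3), -0.090 to 0.086 (Eif4ebp2), -0.0050 to 0.24 (Tsfm), -0.040 to 0.16 (Slc5a6), -0.048 to 0.19 (Ccdc86), -0.30 to 0.057 (Tnfrsf12a) and -0.15 to 0.34 (Nr4a3). The cause of these changes was not tested.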

Other observations

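The pair of Ccn1 probe sets with the wide spread, 1442340_x_at and 1457823_at, lay 0.27 log2 units apart by the root mean square difference of centred values, but 2.22 and 2.43 from the brightest Ccn1 probe set. The nearest other gene to 1457823_at was Kcne3, a potassium channel subunit gene, at 1.54, chosen after its values were seen. The spread of 1457823_at itself was 2.16.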
